A study of Mus musculus with 12 samples.

Results

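The TRIM (tripartite motif) ubiquitin ligase family was taken as every listed gene whose symbol is Trim, a number and at most 1 letter, which gave 43 of the 12850 genes listed. TRIM proteins share a RING domain that passes ubiquitin to a substrate, followed by B-box and coiled-coil domains, while the C-terminal domain differs between subfamilies and chooses the target. Many of them act on innate immune signalling in macrophages, where they attach ubiquitin to the RNA sensor RIG-I, to adaptors or to kinases, or bind invading virus. Some lack the RING domain, and a further subfamily (Trim24, Trim28 and Trim33) works on chromatin in the nucleus.

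RNA-seq was carried out on peritoneal exudate cells (PECs), elicited in C57BL/6 mice by thioglycollate injection. The mice were WT (Zc3h12a WT/WT) or carried S513A (Zc3h12a S513A/S513A), a knock-in made with CRISPR/Cas9 that replaces a serine of the RNase Regnase-1 by alanine in every cell of the mouse. Cells received LPS at 100 ng/ml for 0, 4 or 8 hr, with 2 libraries in each of the 6 groups and 12 in all. Age and sex were not given in the sources used here. The labels do not say whether replicates came from separate mice, so that p-values measure the spread between these libraries, which may be technical, and gene-level values cannot show a codon change.

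The libraries held 9525979 to 12439960 reads on listed genes. Values are log2 CPM (CPM, the reads of a gene scaled to library size), and 3 reads correspond to -2.04 to -1.30. PECs are a mixture. All 10 macrophage markers were measured and their summed level was 19839 to 33442 CPM in every library. Of the other cell types, 3 of 8 neutrophil markers summed to 660 to 745 CPM at 0 hr, 445 to 689 at 4 hr and 362 to 575 at 8 hr, most of it Mmp8. Mmp8 had a log2 change of -0.45 at 4 hr, while S100a8 (0.73) and Camp (4.3, with 0 to 36 reads) went up. The 2 of 9 T and NK cell markers measured summed to 1.33 to 3.02 CPM. The sum of the 5 of 9 eosinophil and mast cell markers measured was 18.1 to 19.8 CPM at 0 hr, 9.70 to 12.8 at 4 hr and 5.82 to 7.20 at 8 hr. Siglecf made up most of it (log2 change at 4 hr -0.97), while Kit had a log2 change of 0.35. The 5 of 7 B cell markers measured summed to 10.1 to 16.0 CPM at 0 hr, 19.2 to 22.1 at 4 hr and 14.5 to 25.9 at 8 hr, and their log2 changes at 4 hr were 0.22 to 0.85. Mesothelial and fibroblast markers (7 of 8) ranged from 24.5 to 54.6 CPM in WT and 9.04 to 37.4 in S513A libraries, and Msln, Upk3b and Lrrn4 had 0 reads in at least 1 library. The part of these shifts in the TRIM values was not tested, and in such bulk samples fewer cells of a type and less RNA per cell cannot be told apart.

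To place the sequences beside the values, promoter windows of 300 bases (250 before and 50 after each start site) were taken from RefSeq, build GRCm38.p6. They were found for 32 of the 43 TRIM genes and not for Trim3, Trim8, Trim11, Trim14, Trim16, Trim29, Trim33, Trim35, Trim36, Trim43c and Trim65. They were searched on both strands for the core of the interferon-stimulated response element (ISRE, GAAANNGAAA). The ISRE letters were present in 9 of the 32 TRIM genes (28.1%), beside 3.44% of the 32851 promoters in the table and 3.98% of the 9345 genes that had both a promoter and a test. By their change at 4 hr of LPS, they were present in 8 of 14 TRIM genes that rose, 1 of 5 that fell (Trim2) and 0 of 13 that did not pass the test. Among all genes that rose at 4 hr, 5.85% of 2736 had a match. The windows of the 8 rising genes are printed because 6 of them lie in 1 run of genes on chromosome 7 and share letters. Capitals mark the match (matches that overlap were joined), and each window reads 5′ to 3′ in the direction of the gene's own transcription. In all but Trim21 the match lies on the opposite strand of the gene, so that the capitals are its reverse complement.
Trim34a, chr7:104244457-104244486, plus strand: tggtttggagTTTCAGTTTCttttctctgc
Trim5, chr7:104288136-104288165, minus strand: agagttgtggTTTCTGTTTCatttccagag
Trim12a, chr7:104315466-104315495, minus strand: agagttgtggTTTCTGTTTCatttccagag
Trim12c, chr7:104353359-104353388, minus strand: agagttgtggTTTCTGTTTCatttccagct
Trim30a, chr7:104465210-104465239, minus strand: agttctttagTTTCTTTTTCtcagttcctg
Trim30d, chr7:104507871-104507900, minus strand: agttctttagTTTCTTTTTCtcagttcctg
Trim21, chr7:102565453-102565476, minus strand: ctgagagGAAACTGAAAGTGAAAt
Trim26, chr17:36836979-36837008, plus strand: cttccgaTTTCACTTTCCTTTTCtcgggcc
Trim5, Trim12a and Trim12c carried the same 10 capital letters, and so did Trim30a and Trim30d, which were alike over the whole window shown. Trim30a has a further RefSeq start site whose window held the same capitals. Other members of this run of genes had no such letters in their windows. Trim30c instead held TTCNNNGAA, the gamma-interferon activated site (GAS), which was found in 8.31% of the genes with a promoter and a test and in 3 of 32 TRIM genes, or 9.38% (Trim30c, Trim45 and Trim46).
Trim30c, chr7:104400822-104400850, minus strand: cgtgactaaaTTCTTAGAAgcttagtgac
The NF-kB consensus was found in 4 of 32 TRIM genes (Trim7, Trim13, Trim28 and Trim46), or 12.5%, against 12.3% of the genes with a promoter and a test. Over all promoters in the table the shares were 8.30% for GAS and 8.46% for NF-kB. A match is a description of letters and not of binding.

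LPS moved more TRIM genes up than down. Outside the chromosome 7 run described below, 8 rose and 8 fell at 4 hr. At 8 hr, 9 genes outside it were higher and 5 lower than at 0 hr. Of 43 genes, 42 passed the filter on low values (1 CPM or more in 2 libraries or more), and Trim43c, with 0 to 9 reads in a library, did not. At 4 hr, 17 of the 42 rose (40.5%), where 29.1% of all 11885 genes tested did, and 8 fell (19.0%), where 26.7% of all genes did (limma, adjusted p under 0.05 over all genes tested, mean of both genotypes). At 8 hr, 18 were higher than at 0 hr (42.9%, 24.5% of all genes) and 5 lower (11.9%, 21.6% of all genes). The median log2 change was 0.14 at 4 hr and 0.23 at 8 hr for TRIM genes, and 0.02 and 0.00 over all genes, and the median size of the change at 4 hr was 0.99 on the log2 scale against 0.42 over all genes. The filter keeps a low gene if it is high after LPS, as with Trim30b, which is among the 17 that rose, and Trim9. These shares thus describe the 42 genes and not the whole family. All 17 genes higher at 4 hr were also higher at 8 hr, and 5 of the 8 lower at 4 hr were also lower at 8 hr. Both comparisons use the same 0 hr libraries. The summed B cell markers were also above 0 hr at 4 hr without overlap (19.2 to 22.1 against 10.1 to 16.0 CPM), and their part in the TRIM genes that rose was not tested.

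**Figure D1:**
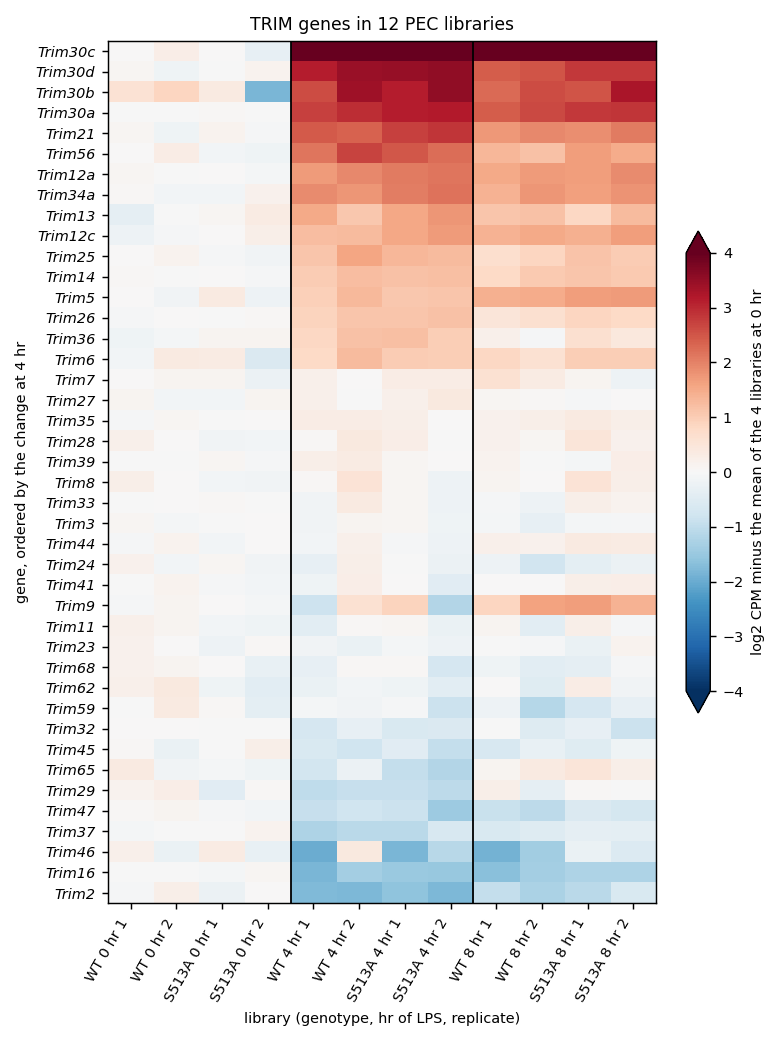
Each row is 1 of 42 TRIM genes and each column 1 of the 12 libraries. Colour gives log2 CPM minus the mean of the 4 libraries at 0 hr, and values beyond 4 have the end colour. The upper rows are dark red in all 8 LPS libraries, Trim30c being past the end of the scale, while the lowest rows are blue and most rows in between stay pale.

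The largest increases belonged to the Trim30 genes, mouse relatives of the primate antiviral gene TRIM5. Trim30c had values of 0.01 and 0.25 in WT and 0.01 and -0.33 in S513A at 0 hr and 5.45 and 5.45 in WT and 5.82 and 6.20 in S513A at 4 hr. Trim30c at 8 hr was 4.14 and 4.59 in WT and 5.04 and 5.28 in S513A (log2 CPM). All 8 LPS libraries were far above the 4 libraries at 0 hr, which held 9 to 15 reads. For the largest changes shown in full, here and below, lack of overlap with 0 hr was part of the choice and adds no support. LPS changed it by a log2 value of 5.74 ± 0.14 (SE, adjusted p = 2.21e-10) at 4 hr, or 53.4-fold, and 4.77 ± 0.14 (SE, adjusted p = 1.22e-09) at 8 hr, or 27.4-fold.

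Trim30d stood at 4.34 and 4.10 in WT and 4.26 and 4.42 in S513A at 0 hr and 7.42 and 7.73 in WT and 7.77 and 7.82 in S513A at 4 hr. Trim30d at 8 hr was 6.70 and 6.79 in WT and 7.11 and 7.09 in S513A. Neither LPS time overlapped 0 hr, and all 8 hr libraries were below all 4 hr libraries. It rose 10.6-fold at 4 hr and 6.23-fold at 8 hr, log2 changes of 3.40 ± 0.09 (SE, adjusted p = 3.18e-10) and 2.64 ± 0.09 (SE, adjusted p = 3.17e-09). Trim30a, whose protein dampens Toll-like receptor signalling through TAB2 and TAB3, read 5.96 and 5.97 in WT and 6.03 and 5.96 in S513A at 0 hr and 8.72 and 8.93 in WT and 9.12 and 9.15 in S513A at 4 hr. Trim30a at 8 hr was 8.41 and 8.61 in WT and 8.81 and 8.83 in S513A. The 4 libraries at 0 hr lay close together, and every LPS library was more than 2 log2 units above them. Trim30a rose 8.01-fold at 4 hr (log2 change 3.0 ± 0.08 SE, adjusted p = 2.27e-10) and 6.43-fold at 8 hr (2.68 ± 0.08 SE, adjusted p = 8.07e-10).

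Trim30b was the least expressed of these genes, with 9, 10, 6 and 1 reads at 0 hr and 22 to 50 reads in the LPS libraries. Its log2 CPM were -0.60 and -0.31 in WT and -0.81 and -2.99 in S513A at 0 hr and 1.42 and 2.21 in WT and 1.96 and 2.37 in S513A at 4 hr. Trim30b at 8 hr was 1.10 and 1.44 in WT and 1.35 and 2.10 in S513A. LPS libraries stood above all 0 hr libraries, but the low S513A value at 0 hr was a single read. All 4 libraries at 0 hr were below 1 CPM, so that the gene passed the filter only through LPS libraries. The fitted log2 change was 3.17 ± 0.42 (SE, adjusted p = 8.54e-05) at 4 hr and 2.67 ± 0.42 (SE, adjusted p = 0.000394) at 8 hr and depends on the 0.5 read that was added before the logarithm. Because of the way Trim30b passed the filter, its p-values are no support for a rise.

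Near them lie Trim12a, Trim12c, Trim34a, Trim5 and Trim6. Trim12a read 3.53 and 3.44 in WT and 3.48 and 3.37 in S513A at 0 hr and 5.17 and 5.39 in WT and 5.54 and 5.59 in S513A at 4 hr. Trim12a at 8 hr was 4.98 and 5.17 in WT and 5.12 and 5.33 in S513A, and its log2 change was 1.97 ± 0.09 (SE, adjusted p = 2.15e-08) at 4 hr and 1.70 ± 0.09 (SE, adjusted p = 9.42e-08) at 8 hr. Trim12c read 4.57 and 4.74 in WT and 4.80 and 5.0 in S513A at 0 hr and 6.03 and 6.04 in WT and 6.32 and 6.48 in S513A at 4 hr. Trim12c at 8 hr was 6.18 and 6.29 in WT and 6.21 and 6.46 in S513A, with log2 changes of 1.44 ± 0.09 (SE, adjusted p = 2.14e-07) and 1.51 ± 0.09 (SE, adjusted p = 1.91e-07). In neither gene did an LPS library reach down to the 0 hr libraries, and neither fell between 4 and 8 hr past the threshold. Trim34a read 3.54 and 3.38 in WT and 3.40 and 3.69 in S513A at 0 hr and 5.38 and 5.27 in WT and 5.56 and 5.66 in S513A at 4 hr. Trim34a at 8 hr was 4.90 and 5.27 in WT and 5.16 and 5.30 in S513A, log2 changes of 1.96 ± 0.11 (SE, adjusted p = 7.54e-08) and 1.65 ± 0.11 (SE, adjusted p = 3.81e-07) with no overlap. Trim5 went from 2.05 to 2.63 at 0 hr to 3.21 to 3.57 at 4 hr and 3.69 to 3.99 at 8 hr, so that its 8 hr libraries were above all others. Trim5 changed by 1.11 ± 0.14 (SE, adjusted p = 5.35e-05) at 4 hr, 1.58 ± 0.14 (SE, adjusted p = 4.42e-06) at 8 hr and 0.46 ± 0.14 (SE, adjusted p = 0.0329) from 4 to 8 hr. The last of these calls was lost without either of the 8 hr replicates of WT or S513A, without WT replicate 1 or without either S513A replicate at 4 hr, with an adjusted p of up to 0.0992. Trim6, which builds free ubiquitin chains that assist the kinase IKK-epsilon, ranged from 0.28 to 1.23 at 0 hr and 1.68 to 2.16 at 4 hr, a log2 change of 1.02 ± 0.23 (SE, adjusted p = 0.00271).

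These 9 genes form a run of 289 kb on chromosome 7 (chr7:104218793-104507849, GRCm38, GENCODE M21), in the order Trim6, Trim34a, Trim5, Trim12a, Trim12c, Trim30b, Trim30c, Trim30a and Trim30d. All 9 were higher at 4 hr and at 8 hr, with a median log2 change of 1.97 and a range of 1.02 to 5.74 at 4 hr. Trim30b is counted among them though it passed the filter only through LPS libraries. Of the 33 TRIM genes tested outside the run, 8 rose and 8 fell at 4 hr, with a median of -0.08. Of all genes, 29.1% rose and 26.7% fell at that time. Elsewhere on chromosome 7, Trim21 (chr7:102557921-102565486) rose while Trim68 (chr7:102677582-102687327) and Trim3 (chr7:105604463-105633571) did not pass the test, with log2 changes of -0.22 ± 0.19 (SE, adjusted p = 0.347) and -0.03 ± 0.10 (SE, adjusted p = 0.825) at 4 hr.

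**Figure D2:**
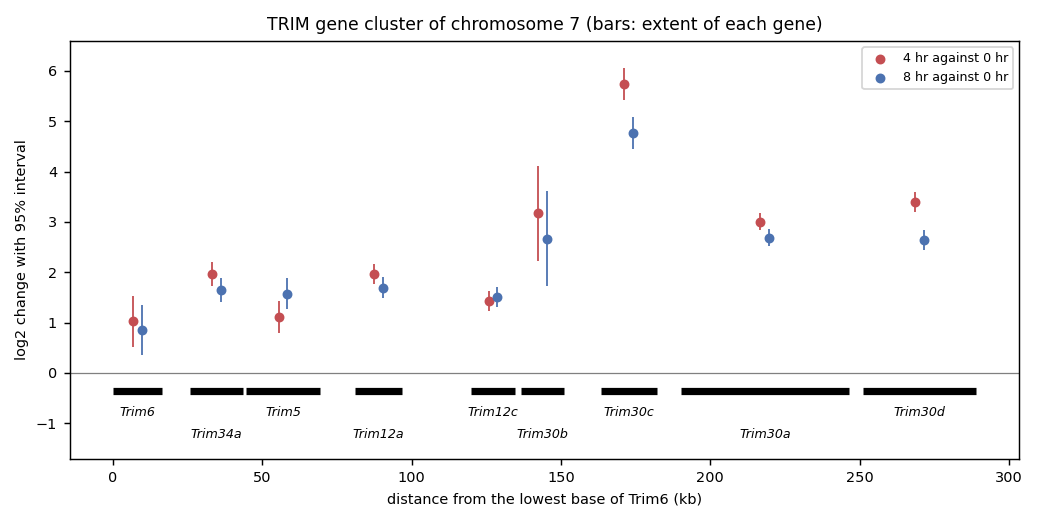
The y axis gives the log2 change at 4 hr (red) and 8 hr (blue) against 0 hr with its 95% interval, the x axis the distance along chromosome 7 in kb from the lowest base of Trim6, and black bars the extent of each gene. All 18 points lie above 0, with Trim30c the highest at 5.74 and 4.77.

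Reads of these relatives are partly shared. Of the words of 50 bases in its exons, Trim34a shared 59.7% with other genes (39.8% with Trim34b, not analysed here), Trim5 36.6%, Trim12c 33.7% and Trim12a 10.5%. For Trim34a, 23.5% of exon bases also overlap Gm47248 on the opposite strand. For these 4 genes, values could have been split or lost by the counting and are uncertain. Trim30d (7.49%), Trim30a (5.98%), Trim30b (1.48%) and Trim30c (0.660%) shared little.

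Outside this run, the genes that rose included ligases of RNA and DNA sensing. Trim21, the cytosolic antibody receptor that marks antibody-coated virus for destruction, read 4.22 and 3.97 in WT and 4.30 and 4.09 in S513A at 0 hr and 6.59 and 6.50 in WT and 6.89 and 7.01 in S513A at 4 hr. Trim21 at 8 hr was 5.88 and 6.06 in WT and 6.0 and 6.23 in S513A. Trim21 changed by 2.60 ± 0.10 (SE, adjusted p = 3.35e-09) at 4 hr and 1.90 ± 0.10 (SE, adjusted p = 5.15e-08) at 8 hr, with all 3 times separate. Trim56, an interferon-inducible ligase of the cGAS-STING pathway of DNA sensing, read 3.85 and 4.13 in WT and 3.74 and 3.66 in S513A at 0 hr and 6.0 and 6.56 in WT and 6.34 and 6.09 in S513A at 4 hr. Trim56 at 8 hr was 5.19 and 5.03 in WT and 5.52 and 5.34 in S513A. It rose 5.29-fold at 4 hr (log2 change 2.40 ± 0.13 SE, adjusted p = 6.66e-08) and was 2.68-fold above 0 hr at 8 hr (log2 change 1.42 ± 0.13 SE, adjusted p = 5.69e-06), and again the 3 times did not overlap. Trim25, the ligase that ubiquitinates RIG-I, read 7.32 and 7.46 in WT and 7.25 and 7.17 in S513A at 0 hr and 8.39 and 8.87 in WT and 8.64 and 8.55 in S513A at 4 hr. Trim25 at 8 hr was 7.96 and 8.15 in WT and 8.45 and 8.30 in S513A. Trim25 changed by 1.31 ± 0.11 (SE, adjusted p = 1.47e-06) at 4 hr and 0.92 ± 0.11 (SE, adjusted p = 3.51e-05) at 8 hr, with every LPS library above every 0 hr library.

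Trim14, which lacks the RING domain and works as an adaptor of MAVS, read 4.56 and 4.49 in WT and 4.54 and 4.46 in S513A at 0 hr and 5.54 and 5.75 in WT and 5.67 and 5.73 in S513A at 4 hr. Trim14 at 8 hr was 5.31 and 5.56 in WT and 5.62 and 5.56 in S513A. Its log2 change was 1.16 ± 0.09 (SE, adjusted p = 7.8e-07) and 1.0 ± 0.09 (SE, adjusted p = 3.29e-06), but 31.3% of its exon bases overlap Nans on the opposite strand and the reads carry no strand, so its reads and those of Nans cannot be told apart there. Trim26 read 5.11 and 5.18 in WT and 5.12 and 5.19 in S513A at 0 hr and 6.05 and 6.27 in WT and 6.25 and 6.31 in S513A at 4 hr. Trim26 at 8 hr was 5.65 and 5.80 in WT and 6.0 and 5.96 in S513A. Its log2 change was 1.07 ± 0.08 (SE, adjusted p = 6.93e-07) and 0.70 ± 0.08 (SE, adjusted p = 2.73e-05), with the 8 hr libraries between the other two times and no overlap. Of the remaining members, Trim13, an endoplasmic reticulum ligase, changed by 1.48 ± 0.14 (SE, adjusted p = 5.29e-06) and 1.09 ± 0.14 (SE, adjusted p = 7.66e-05). It shares 14.2% of its words with other genes. Trim36, which binds microtubules, rose by 1.05 ± 0.11 (SE, adjusted p = 9.67e-06) at 4 hr, from 4.32 to 4.60 to 5.30 to 5.69, and stood at 4.43 to 5.11 at 8 hr, which overlaps 0 hr. The 8 hr call of Trim36 (log2 change 0.30 ± 0.11 SE, adjusted p = 0.0391) was lost without WT replicate 1 or 2 or S513A replicate 1 or 2 at 0 hr, or replicate 1 of either genotype at 8 hr, at an adjusted p of up to 0.144.

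**Figure D3:**
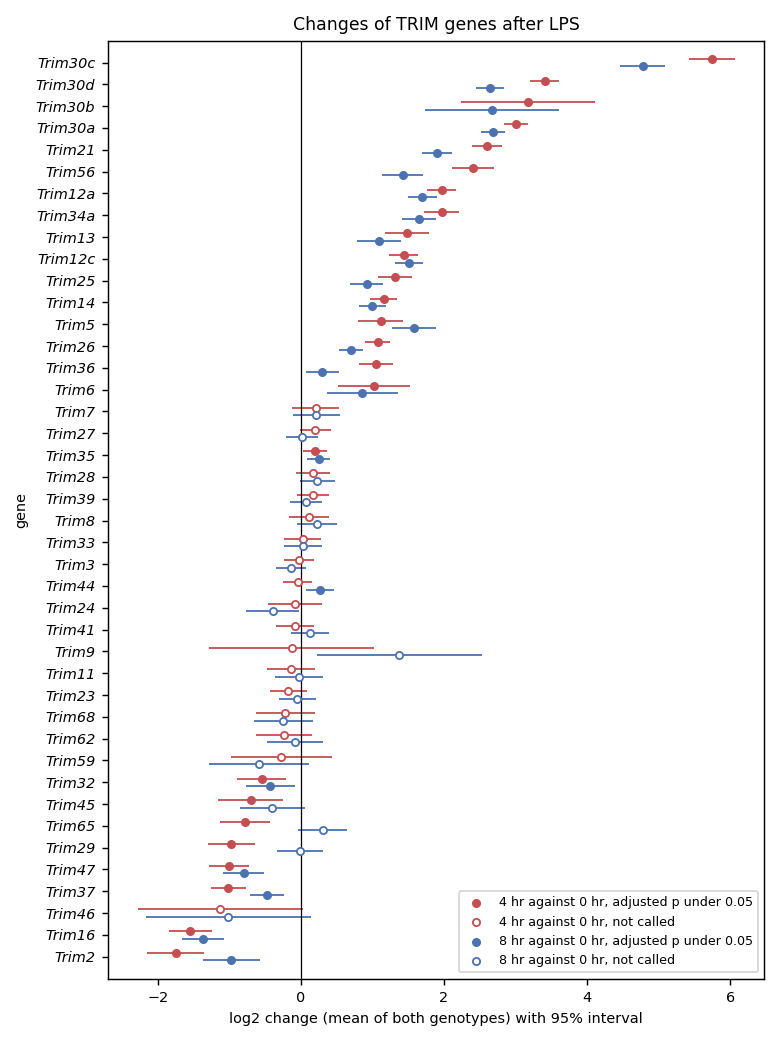
Log2 changes of 42 TRIM genes at 4 hr (red) and 8 hr (blue) against 0 hr, as the mean of both genotypes with 95% intervals; filled points passed an adjusted p under 0.05 (limma). Intervals of Trim30c to Trim6 lie right of 0 and those of Trim2 and Trim16 left of it, while Trim9, Trim46 and Trim30b, with few reads, have wide intervals.

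From 4 to 8 hr, 8 TRIM genes went down (19.0%, 12.8% of all genes) and 6 went up (14.3%, also 12.8% of all genes). The 8 that went down, namely Trim21, Trim25, Trim26, Trim30a, Trim30c, Trim30d, Trim36 and Trim56, were all higher at 8 hr than at 0 hr. The changes ran from -0.98 for Trim56 to -0.32 for Trim30a on the log2 scale. The call of Trim30a was lost without WT 8 hr replicate 1 (adjusted p = 0.0587), and that of Trim25 without S513A 4 hr replicate 1, WT 8 hr replicate 1 or S513A 8 hr replicate 2 (adjusted p of up to 0.0817). The genes that went up were Trim5, Trim44, and 4 that had fallen at 4 hr (Trim2, Trim29, Trim37 and Trim65).

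**Figure D4:**
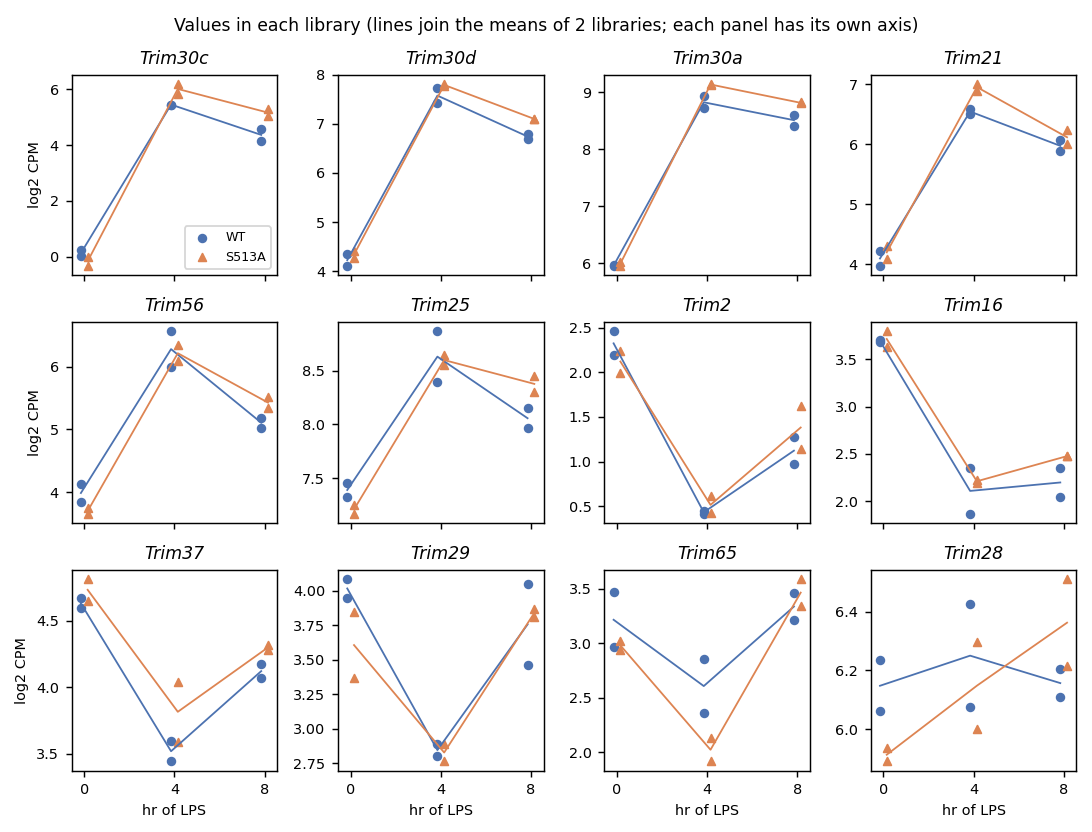
Log2 CPM of 12 TRIM genes in every library at 0, 4 and 8 hr of LPS, with WT as blue circles, S513A as orange triangles, lines through the means of 2 libraries, and an own y axis in each panel. Trim30c, Trim30d, Trim30a, Trim21, Trim56 and Trim25 peak at 4 hr, while Trim2, Trim37, Trim29 and Trim65 are lowest at 4 hr and the libraries of Trim28 overlap at all 3 times.

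The genes that fell were a mixed group. The summed eosinophil and mast cell markers, most of them Siglecf, were also lower at 4 and 8 hr, as given above, and their part in these genes was not tested. Trim2, an NHL-repeat ligase known from neurons, read 2.19 and 2.46 in WT and 2.0 and 2.24 in S513A at 0 hr and 0.45 and 0.41 in WT and 0.61 and 0.42 in S513A at 4 hr. Trim2 at 8 hr was 1.28 and 0.97 in WT and 1.14 and 1.63 in S513A. The log2 change of Trim2 was -1.75 ± 0.18 (SE, adjusted p = 1.18e-05) at 4 hr. Its 8 hr libraries (log2 change -0.97 ± 0.18 SE, adjusted p = 0.00122) lay between the other times without overlap. Trim16, which lacks the RING domain and takes part in the removal of damaged lysosomes, read 3.70 and 3.69 in WT and 3.63 and 3.80 in S513A at 0 hr and 1.87 and 2.35 in WT and 2.23 and 2.20 in S513A at 4 hr. Trim16 at 8 hr was 2.05 and 2.35 in WT and 2.48 and 2.48 in S513A. Its log2 change was -1.54 ± 0.13 (SE, adjusted p = 2.85e-06) at 4 hr and -1.37 ± 0.13 (SE, adjusted p = 1.02e-05) at 8 hr, and no LPS library came near those at 0 hr. Trim37, a centrosome and histone ligase, read 4.59 and 4.67 in WT and 4.65 and 4.81 in S513A at 0 hr and 3.44 and 3.60 in WT and 3.59 and 4.04 in S513A at 4 hr. Trim37 at 8 hr was 4.07 and 4.18 in WT and 4.32 and 4.28 in S513A, with log2 changes of -1.01 ± 0.11 (SE, adjusted p = 1.56e-05) and -0.47 ± 0.11 (SE, adjusted p = 0.00461) and 3 separate times.

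Trim47 read 4.55 and 4.60 in WT and 4.44 and 4.40 in S513A at 0 hr and 3.59 and 3.69 in WT and 3.63 and 3.03 in S513A at 4 hr. Trim47 at 8 hr was 3.62 and 3.44 in WT and 3.93 and 3.79 in S513A. Its log2 changes were -1.01 ± 0.13 (SE, adjusted p = 5.11e-05) and -0.80 ± 0.13 (SE, adjusted p = 0.000374). Trim65, a ligase of the RNA sensor MDA5, is the neighbour of Trim47 on chromosome 11 and shares 225 exon bases with it on the same strand. Trim65 read 3.47 and 2.97 in WT and 3.02 and 2.94 in S513A at 0 hr and 2.36 and 2.85 in WT and 2.13 and 1.92 in S513A at 4 hr. Trim65 at 8 hr was 3.21 and 3.46 in WT and 3.59 and 3.34 in S513A. It was lower at 4 hr (log2 change -0.78 ± 0.16 SE, adjusted p = 0.00147), with every 4 hr library below every 0 hr library, and at 8 hr the groups overlapped (0.30 ± 0.16 SE, adjusted p = 0.143). Trim29, which lacks the RING domain and restrains innate responses of alveolar macrophages, read 3.95 and 4.08 in WT and 3.37 and 3.85 in S513A at 0 hr and 2.81 and 2.89 in WT and 2.89 and 2.76 in S513A at 4 hr. Trim29 at 8 hr was 4.05 and 3.46 in WT and 3.87 and 3.81 in S513A. It had the same course, with a log2 change of -0.97 ± 0.15 (SE, adjusted p = 0.000212) at 4 hr and -0.01 ± 0.15 (SE, adjusted p = 0.949) at 8 hr.

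Trim32, an NHL-repeat ligase mutated in a muscular dystrophy, read 3.57 and 3.56 in WT and 3.55 and 3.55 in S513A at 0 hr and 2.88 and 3.22 in WT and 2.95 and 2.99 in S513A at 4 hr. Trim32 at 8 hr was 3.54 and 3.04 in WT and 3.24 and 2.69 in S513A. Its libraries at 0 hr lay close together and above all LPS libraries. The log2 change was -0.55 ± 0.15 (SE, adjusted p = 0.0106) at 4 hr and -0.43 ± 0.15 (SE, adjusted p = 0.0404) at 8 hr, but the 8 hr call was lost without any of the 4 libraries at 0 hr, either S513A library at 4 hr, or replicate 2 of either genotype at 8 hr (adjusted p of up to 0.163). Trim45 was lower at 4 hr (log2 change -0.70 ± 0.20 SE, adjusted p = 0.013, 11 to 38 reads over all libraries) and not without WT 0 hr replicate 1 (adjusted p = 0.0524).

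No member of the chromatin subfamily passed the test in the mean of the genotypes. Trim28 (KAP1), the corepressor recruited by KRAB zinc finger proteins, read 6.23 and 6.06 in WT and 5.89 and 5.94 in S513A at 0 hr and 6.07 and 6.43 in WT and 6.30 and 6.0 in S513A at 4 hr. Trim28 at 8 hr was 6.20 and 6.11 in WT and 6.51 and 6.21 in S513A. The change of Trim28 was 0.17 (95% interval -0.07 to 0.41) at 4 hr and 0.23 (95% interval -0.01 to 0.47) at 8 hr. Within S513A alone its 8 hr change passed (0.45 ± 0.15 SE, adjusted p = 0.0396) and within WT it did not (0.01 ± 0.15 SE, adjusted p = 0.968), but the difference between the genotypes did not pass (0.44 ± 0.22 SE, adjusted p = 0.271). The S513A call was lost without any one library at 0 hr, either WT library at 8 hr or S513A 8 hr replicate 1 (adjusted p of up to 0.252), a step chosen after seeing the data. Trim33 read 5.17 and 5.21 in WT and 5.24 and 5.17 in S513A at 0 hr and 5.04 and 5.57 in WT and 5.29 and 4.99 in S513A at 4 hr. Trim33 at 8 hr was 5.15 and 4.99 in WT and 5.42 and 5.34 in S513A, a change of 0.02 (95% interval -0.24 to 0.29) and 0.03 (95% interval -0.23 to 0.29). Trim24 read 3.38 and 3.10 in WT and 3.30 and 3.06 in S513A at 0 hr and 2.88 and 3.46 in WT and 3.20 and 2.99 in S513A at 4 hr. Trim24 at 8 hr was 3.02 and 2.46 in WT and 2.81 and 2.97 in S513A, a change of -0.08 (95% interval -0.45 to 0.30) and -0.40 (95% interval -0.77 to -0.02). At 4 hr the LPS libraries of all 3 genes overlapped those at 0 hr, while at 8 hr those of Trim24 lay just below them without passing the threshold (adjusted p = 0.0799). In the list of partners of Trim28, 3 of 11 genes tested rose and 5 fell at 4 hr, and 2 were higher and 3 lower at 8 hr, beside 29.1% higher and 26.7% lower of all genes at 4 hr and 24.5% and 21.6% at 8 hr. The list's median log2 change was -0.10 at 4 hr and 0.12 at 8 hr. The largest changes at 4 hr were those of 2 genes that fell. The maintenance methyltransferase Dnmt1 changed by -1.53 ± 0.12 (SE, adjusted p = 9.87e-07) and the heterochromatin protein gene Cbx3 by -0.81 ± 0.11 (SE, adjusted p = 0.000126).

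Ranked per kb of exon, which allows genes to be compared, the most abundant TRIM genes at 0 hr were Trim25 (4.78 log2 CPM per kb, mean of 4 libraries), Trim35 (4.47) and Trim8 (4.25), with SDs of 0.12, 0.05 and 0.16 (n = 4). Trim28 (3.97) and Trim30a (3.94) came next and did not differ beyond their spread. At 4 hr Trim30a was the first at 6.94, followed by Trim25 at 6.09 and Trim30d at 5.77, while Trim30c went from rank 34 of 43 at 0 hr to rank 4. Trim9, known from neurons, was the last at all 3 times, with 1 to 14 reads in a library.

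Trim35, a ligase first found in macrophages, read 6.64 and 6.74 in WT and 6.64 and 6.67 in S513A at 0 hr and 6.96 and 6.96 in WT and 6.89 and 6.67 in S513A at 4 hr. Trim35 at 8 hr was 6.85 and 6.91 in WT and 7.02 and 6.89 in S513A. Its log2 changes of 0.20 ± 0.07 (SE, adjusted p = 0.0414) and 0.25 ± 0.07 (SE, adjusted p = 0.0192) were the smallest that passed the threshold, and the 4 hr libraries overlapped those at 0 hr. Under quantile normalization the 4 hr change became -0.07 (adjusted p = 0.485). It was also lost without any of 9 libraries (all of them at 0 hr, both WT and S513A replicate 1 at 4 hr, and both WT at 8 hr), at an adjusted p of up to 0.152. The 8 hr call was lost without WT replicate 1 or either S513A replicate at 0 hr, WT replicate 2 or S513A replicate 1 at 8 hr (up to 0.0742). Trim8, a partner of SOCS1, read 6.37 and 6.15 in WT and 6.03 and 6.01 in S513A at 0 hr and 6.18 and 6.68 in WT and 6.23 and 5.92 in S513A at 4 hr. Trim8 at 8 hr was 6.25 and 6.15 in WT and 6.70 and 6.37 in S513A, a change of 0.11 (95% interval -0.17 to 0.39) and 0.23 (95% interval -0.05 to 0.51). Within S513A alone, Trim8 passed at 8 hr (0.51 ± 0.18 SE, adjusted p = 0.041) and within WT it did not (-0.06 ± 0.18 SE, adjusted p = 0.83), with a difference between genotypes of 0.57 ± 0.25 (SE, adjusted p = 0.243). This call was lost without the same libraries as that of Trim28 (adjusted p of up to 0.247). Trim44, which lacks the RING domain, passed at 8 hr (0.27 ± 0.09 SE, adjusted p = 0.031). It did not pass without WT or S513A replicate 1 at 0 hr or any one library at 8 hr (up to 0.12), and its rise from 4 to 8 hr was lost without WT 4 hr replicate 1, S513A 4 hr replicate 2 or any one library at 8 hr (up to 0.0898). The other genes that passed at no time in the mean of the genotypes were Trim3, Trim7, Trim9, Trim11, Trim23, Trim27, Trim39, Trim41, Trim46, Trim59, Trim62 and Trim68, with log2 changes at 4 hr from -1.13 (Trim46, 2 to 14 reads) to 0.20 (Trim7). At 8 hr they ran from -1.01 (Trim46) to 1.37 ± 0.52 (SE, adjusted p = 0.051) for Trim9, whose change from 4 to 8 hr was 1.5 ± 0.52 (SE, adjusted p = 0.0568). Trim9 reached 1 CPM only in libraries at 8 hr (log2 CPM of 0.25, 0.32 and 0.04). It passed the filter through the group in which it is high, so that its p-values at 8 hr are no support for a rise.

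By domain, the SPRY subfamily (C-IV), whose C-terminal domain binds viral or host proteins, held 22 of the genes tested, of which 13 rose and 2 fell at 4 hr (median log2 change 1.05). The 9 genes of the chromosome 7 run all belong to it and are among these 13. Outside the run, Trim21, Trim25, Trim26 and Trim35 rose, Trim47 and Trim65 fell, and the other SPRY genes tested did not pass. Of 3 NHL-repeat genes, 0 rose and 2 fell. Of 4 genes without a RING domain, 1 rose and 2 fell. Of all genes tested, 29.1% rose and 26.7% fell at 4 hr, and groups of 3 or 4 genes are too few to be set apart from these shares. All 12 genes tested of a list known to be induced by interferon (Trim12a, Trim12c, Trim14, Trim21, Trim25, Trim26, Trim30a, Trim30b, Trim30c, Trim30d, Trim34a and Trim56) were higher at both times, with medians of 2.19 and 1.67. Of all genes, 29.1% were higher at 4 hr and 24.5% at 8 hr. Trim30b entered this count only through LPS libraries. The list was chosen with earlier results of these data known, so the count is no independent support. Members of this list lie in the SPRY subfamily and in the run on chromosome 7, so these groupings are not separate evidence.

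Genes that work with TRIM proteins moved as follows, to be read beside the shares of all genes given above. Of TRIM family genes with other names, Mefv (pyrin) changed by 3.02 ± 0.12 (SE, adjusted p = 6.02e-09) at 4 hr and Pml by 1.30 ± 0.15 (SE, adjusted p = 2.21e-05), whereas Mid1 did not pass (0.69 ± 0.32 SE, adjusted p = 0.0858). In none of these lists did a gene pass a test between genotypes. The largest S513A minus WT difference in the mean over times was that of Mid1 (log2 difference 1.65 ± 0.26 SE, adjusted p = 0.0763, limma). At 8 hr it was 2.43 ± 0.45 (SE, adjusted p = 0.395). Of 19 interferon signalling genes, 15 rose and 2 fell at 4 hr, with a median of 1.47, with Socs1 at 4.69 ± 0.15 (SE, adjusted p = 1.51e-09) and Usp18 at 4.49 ± 0.11 (SE, adjusted p = 1.69e-10). Ifng had 0 reads in all 4 libraries at 0 hr, 8 to 17 reads at 4 hr and 18 to 21 at 8 hr, so that it passed the filter through LPS and no fold is given. It is counted among the 15 that rose. Of 26 sensors and adaptors that TRIM proteins act on, 21 rose and 4 fell, with a median of 1.46. The RIG-I gene Ddx58, substrate of Trim25, changed by 3.03 ± 0.08 (SE, adjusted p = 2.39e-10), and the MDA5 gene Ifih1, substrate of Trim65, by 3.98 ± 0.08 (SE, adjusted p = 4.15e-11). The STING gene Tmem173, named after its values were seen, fell (-0.97 ± 0.15 SE, adjusted p = 0.000241). At 8 hr, 15 of the 19 signalling genes and 19 of the 26 sensors and adaptors were above 0 hr, and 1 of each list was below.

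RING ligases take ubiquitin from E2 enzymes. Of 17 E2 genes 13 rose and 0 fell at 4 hr, with a median log2 change of 0.47, and 9 were higher and 0 lower at 8 hr. Of all genes, 29.1% were higher and 26.7% lower at 4 hr, and 24.5% and 21.6% at 8 hr. The largest change was that of Ube2l6 (2.06 ± 0.15 SE, adjusted p = 7.15e-07), the E2 of the ubiquitin-like protein ISG15. All 5 genes of ISG15 conjugation rose at both times, with Isg15 itself at 6.29 ± 0.22 (SE, adjusted p = 2.75e-09) and Herc6 at 3.47 ± 0.09 (SE, adjusted p = 3.5e-10). The lists overlap: Ube2l6 is also counted among the E2 genes and Usp18 also among the interferon signalling genes.

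The S513A mutation was compared with WT at each time. No TRIM gene passed the test (limma) at 0, 4 or 8 hr or in the mean over times, where 0.0337%, 0.0168%, 0.0337% and 0.0673% of all genes did, and 0 did in every alternative that gave a value. The count over all genes at 0 hr was less stable, with 4 genes here and 693 when only the libraries at 0 hr were fitted. An unadjusted p under 0.05 was seen for 2, 5, 6 and 6 of the 42 genes (4.76%, 11.9%, 14.3% and 14.3%). The shares of all genes were 7.98%, 7.01%, 12.5% and 6.71%. The LPS change did not differ between genotypes past the threshold for any TRIM gene at 4 hr or 8 hr, nor for any gene (0% of all genes in both). For this difference 1 and 6 TRIM genes had an unadjusted p under 0.05 (2.38% and 14.3%), beside 1.21% and 20.2% of all genes. Without S513A 8 hr replicate 2, 651 genes passed in the 8 hr comparison and 0 of them were TRIM genes, and without WT 0 hr replicate 1 it was 1 gene. With 2 libraries a group the median SE of a genotype difference was 0.18 on the log2 scale, so that small differences were not detectable.

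The smallest p-values in the mean over times belonged to Trim30a, Trim12c and Trim30d. Their S513A minus WT differences were 0.22 (95% interval 0.08 to 0.35), 0.24 (95% interval 0.07 to 0.40) and 0.23 (95% interval 0.07 to 0.39) on the log2 scale, with adjusted p of 0.473, 0.562 and 0.566 (limma). In the values above, both S513A libraries of Trim30a and Trim30d were above both WT libraries at 4 and 8 hr and not at 0 hr. Trim30c showed this as well, with a difference of 0.80 (95% interval 0.35 to 1.25) at 8 hr (adjusted p = 0.395), and was named here after its values were seen. For Trim12c, both S513A libraries were above both WT libraries at 0 and 4 hr and not at 8 hr. At 8 hr those of Trim26, Trim36 and Trim44 were also above, while at 0 hr those of Trim8 and Trim62 were below. The share of all genes with such separation was not counted.

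At 8 hr the log2 difference was above 0 for 37 of 42 TRIM genes (median 0.19), where 51.1% of all genes were above 0 (median 0.01). At 0 and 4 hr 16 and 19 of 42 were above 0, with medians of -0.06 and -0.02. Leaving out 1 library at 8 hr gave 31 to 39 of 42 and medians of 0.19 to 0.23. At 4 hr the same step gave 15 to 31 of 42, with the median at -0.15 without WT replicate 1, at 0.14 without WT replicate 2 and at 0.08 without S513A replicate 2. This step was chosen after seeing the data. The summed mesothelial and fibroblast markers also differed between the genotypes' libraries, with overlap (24.5 to 54.6 CPM in WT and 9.04 to 37.4 in S513A), and their part was not tested. The genes share their libraries and are not replicates, and no test was made of the shift. The size of the median at 8 hr was close to the SE of a single gene.

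**Figure D5:**
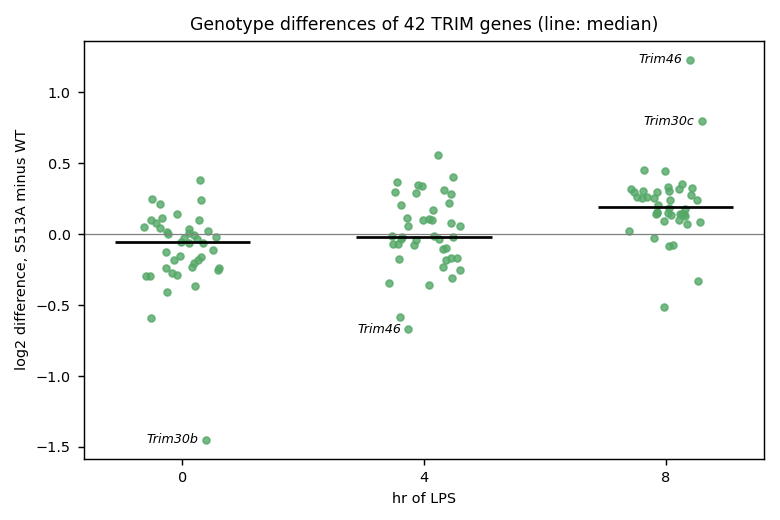
Each point is the log2 difference, S513A minus WT, of 1 of 42 TRIM genes at 0, 4 or 8 hr of LPS, spread sideways at random, and the line is the median (-0.06, -0.02 and 0.19). Genes more than 0.6 from 0 are named; Trim46 and Trim30b have few reads, and no point passed the test.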

How the data were processed

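PEC RNA was sequenced on a NextSeq (paired end, unstranded). The authors mapped reads to mm10 with HISAT2 and counted them with featureCounts 1.6.3, and the deposited table holds log2 CPM per gene, made with 0.5 read added and effective library sizes. Whole reads could be recovered from it (largest departure 0.00137 read). Here the deposited log2 values were fitted with limma 3.58.1 in R 4.3.3, with 1 mean for each of the 6 groups and a trended prior, over the 11885 genes that reached 1 CPM in 2 or more libraries. Tests were two-sided with Benjamini-Hochberg adjustment and a threshold of 0.05, and the fit was tested on simulated data. LPS contrasts average the genotypes.

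Values in every library are given for the 6 largest changes in each direction past the threshold without overlap at 4 and at 8 hr, the 3 most abundant genes per kb at 0 hr, the 3 smallest p-values between genotypes, the interferon-inducible list and the chromatin subfamily. The members and lists were chosen with earlier results of these data known. Shared words of 50 bases and exon lengths come from GENCODE M21. Alternatives were other filters, pseudocounts, scalings, priors, weights (voom), a replicate block, single genotypes and each library left out.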

Additional observations from a re-analysis of the deposited data

How the results depend on the processing

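Under every alternative that gave a value, 0 TRIM genes differed between genotypes (fits of 1 genotype alone give none). The counts for LPS stayed within 1.5 times except where a genotype was fitted alone: WT alone gave 5 genes lower at 4 hr (8 in all libraries), 2 higher and 5 lower at 8 hr than at 4 hr (6 and 8), and S513A alone gave 1 lower at 8 hr than at 0 hr (5), 3 higher and 5 lower at 8 hr than at 4 hr. These fits hold fewer libraries. Without 1 library, 16 to 17 genes were higher and 7 to 9 lower at 4 hr, and 15 to 19 higher and 4 to 7 lower at 8 hr. Of 1478 single-gene values, 1377 kept direction and call, 100 lost the call, and 1 changed sign, the 4 hr change of Trim35 under quantile normalization (log2 change -0.0667, against 0.20). The cause was not tested. No scaling moved the median of all genes by more than 0.05 on the log2 scale.

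Whether replicate numbers pair the samples was not settled. Deviations of replicate 1 correlated between times at 0.09, 0.15 and 0.42 within S513A and at -0.10, -0.03 and 0.08 within WT. Between groups of different genotype the correlations were -0.41 to 0.14. With the replicate block, 17 TRIM genes were higher and 8 lower at 4 hr, 19 and 4 at 8 hr, 7 and 9 from 4 to 8 hr, and 0 between genotypes, and the 8 hr call of Trim32 was lost (adjusted p = 0.0535). The groups of 2 libraries leave differences near the SE undetectable, and genes with few reads (Trim9, Trim30b, Trim46) have the widest errors.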
